A study of Mus musculus with 4 samples.

Results

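Day 11 gastruloids were compared with day 6 gastruloids over all genes. The comparison used every cell of these 2 days with 2000 or more UMIs (unique molecular identifiers, each counting 1 captured RNA molecule) and a share of mitochondrially encoded RNA under 20%. This kept 5850 cells at day 6 and 8730 at day 11, together 14580 of the 31330 cells that passed the same limits on all 4 days of the series. Of 32285 genes in the feature lists, 8844 reached 10 CPM (UMIs of the gene in every 1000000 UMIs of the library, here always this unit and not cardiopharyngeal mesoderm) in the higher of both libraries, and these genes are the members described. Gastruloids are aggregates of mouse embryonic stem cells that form tissues of the early embryo in culture. Both groups were wild type, came from the Zx1 embryonic stem cell line and differed in their time in culture. All gastruloids had received a pulse of the Wnt agonist Chiron before day 4. The cardiogenic factors bFGF, VEGF and ascorbic acid, added from day 4, were in the medium at day 6 and had been withdrawn before day 11, so age and medium cannot be told apart. Each library was made from several pooled gastruloids, and neither day had a replicate library.

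In the embryo, mesoderm that leaves the primitive streak gives rise to heart muscle, head and trunk skeletal muscle, vessels, blood and connective tissue, while neighbouring cells form gut and nervous system. The step from specified progenitor to working tissue is known for a rise in structural, contractile and metabolic genes and a loss of genes shared by all young embryonic cells, among them the RNA-binding proteins of the Lin28 family. Late in embryonic life the nuclear factor I proteins, a family of DNA-binding proteins, are known to come on in many tissues.

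With 1 library per day no test was possible and no p value is given. A gene is called higher or lower at a ratio of day 11 over day 6 of 2 or more or of 0.5 or less. Intervals are at 95%, from the exact conditional binomial distribution, and cover counting error only. Libraries held 180968688 UMIs at day 6 and 148266070 at day 11 after filtering. Day 11 cells were shallower, with a median of 12082 UMIs per cell against 25581. Cells thinned to 5000 UMIs gave 848 genes higher and 369 lower, of which 720 and 307 were among the 868 and 353 called from all UMIs. For calls and log2 ratios, a gene with under 3 UMIs in a library was set to 3 UMIs there. That is 0.0166 CPM at day 6 and 0.0202 CPM at day 11, and such a log2 ratio is a bound. For a gene without UMIs in a library the printed ratio is a bound too. The libraries shared 16 cell barcodes, 10 of them among the kept cells. Ribosomal protein genes took 27.2% of UMIs at day 6 and 24.9% at day 11, and mitochondrially encoded genes took 3.05% and 2.73%. In such sums, more cells of a type and more RNA per cell cannot be told apart.

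Most genes were at a similar level on both days, and the genes that differed were mostly higher at day 11. At day 11, 868 of 8844 genes were at least 2-fold higher, 9.81% of those entered. The reverse held for 353 genes, 3.99%. These shares of all entered genes are the background for the counts of gene lists in the whole libraries. The remaining 7623 genes (86.2%) stayed within 2-fold, and the median log2 ratio over all 8844 was 0.01. At a 4-fold limit 354 genes were higher and 70 lower, and at a 10-fold limit 131 were higher and 24 lower. Of the genes called higher, 533 lay under 10 CPM at day 6, and of those called lower, 149 lay under 10 CPM at day 11. Such genes entered only through the library where they were high. Counts and medians of lists that were rare at day 6 therefore lean towards higher by the filter, in the whole libraries and inside classes of cells. Over the 8844 genes the CPM of both days had a Spearman rho of 0.863, a description across genes of the same pair of libraries. No gene of the reference list, which holds 12 housekeeping genes such as Actb and Ywhaz, was past 2-fold among 11 entered, and their median log2 ratio was -0.30.

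**Figure D1:**
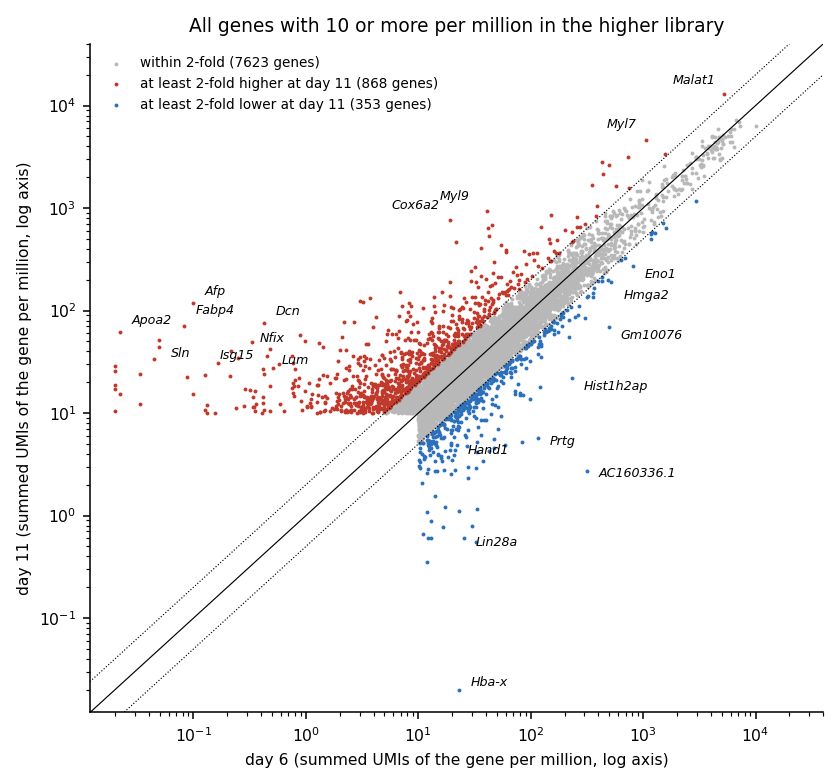
Each point is a gene, with its summed CPM at day 6 on the x axis and at day 11 on the y axis, both log axes; genes without UMIs in a library are drawn at 0.02. Solid and dotted lines mark equal levels and 2-fold. The cloud of 7623 grey genes follows the line of equal levels, the 868 red genes above it reach down to the left edge (Apoa2, Afp, Sln), and the 353 blue genes lie below it, with Hba-x at the lower edge.

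The largest rises among genes with 50 or more CPM included liver-type, muscle, connective tissue and neuronal genes. Apoa2, an apolipoprotein of liver and yolk sac (chr1:171225054-171226379), was at 0.0221 CPM at day 6, from 4 UMIs, and at 61.8 CPM at day 11, a ratio of 2798 (1092 to 10271). Afp, alpha-fetoprotein of the same tissues (chr5:90490737-90508907), was at 0.0995 and 118 CPM. In both cases day 6 was close to empty, so the ratios are wide. Sarcolipin (Sln, chr9:53850164-53854560), which inhibits the calcium pump of muscle, was at 0.0497 and 51.9 CPM. Phospholamban (Pln), the related inhibitor of cardiac muscle, was at 3.21 and 122 CPM, a ratio of 37.9 (34.9 to 41.2). Other muscle genes at this end were Cox6a2, the muscle form of a cytochrome c oxidase subunit, from 19.2 to 757 CPM, and Myl9, a regulatory myosin light chain, from 40.5 to 933 CPM. Calca, which encodes calcitonin and a related peptide, was at 2.08 and 55.2 CPM. Dcn (decorin), a matrix proteoglycan, was at 0.420 and 75.4 CPM, and Mgp, an inhibitor of calcification, at 2.66 and 77.3 CPM. Among neuronal genes, Tubb3, a neuronal tubulin, rose from 3.04 to 125 CPM, and Ina, a neurofilament-like protein, from 0.989 to 50.7 CPM. Stmn2, a regulator of microtubules, had 43.7, 11.7, 3.73 and 134 CPM in the libraries of days 4, 5, 6 and 11, so its lowest library was day 6. Also at this end were Fabp4, a fatty acid carrier of capillaries and fat, with 0.0829 and 71.2 CPM, and Ifi27, an interferon-induced gene, with 0.879 and 58.1 CPM.

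Cells were also sorted into classes by markers, to see in which cells the reads of these genes lay. A cell of 5000 or more UMIs was placed in a class when 3 or more of the class's markers were found after thinning to 5000 UMIs, so that 115 day 6 cells and 340 day 11 cells were too shallow to place. This gave 842 and 1747 cardiomyocyte-like, 459 and 516 endothelium-like, 179 and 1078 neural-like, 109 and 58 endoderm-like and 4144 and 4867 unclassed cells at day 6 and day 11. Skeletal muscle-like and blood-like cells numbered 56 and 68 at day 11 against 0 and 2 at day 6, too few to compare. The classes are cuts in a marker count: at day 6 249 of the cardiomyocyte-like and 91 of the neural-like cells held exactly 3 markers, and class sizes move with the markers' own levels, so they are not compared. Of the day 11 UMIs of Pln, 98.9% lay in cardiomyocyte-like cells, which held 30.9% of all UMIs. Apoa2 and Afp had 99.2% and 98.5% of theirs in the 58 endoderm-like cells, Fabp4 87.5% in endothelium-like cells, Tubb3 and Ina 90.3% each in neural-like cells, and Dcn 88.2% in unclassed cells. Tubb3, Ina, Afp and Apoa2 are themselves class markers, and unclassed cells are the remainder, with no marker set of their own.

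**Figure D2:**
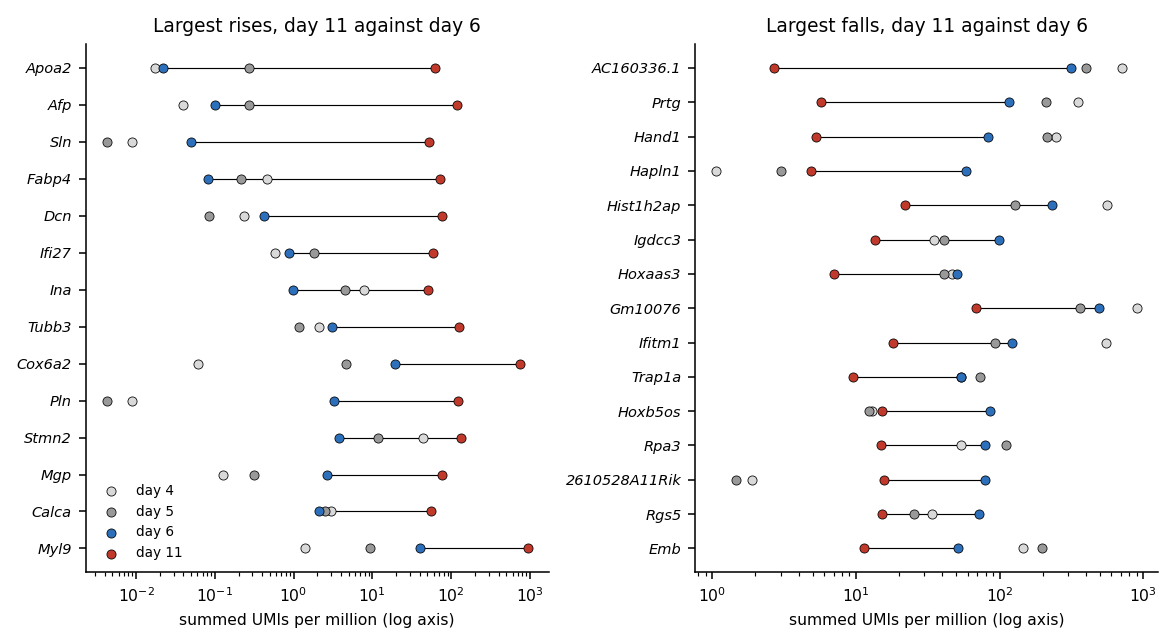
Summed CPM (log axis) of 14 of the 15 genes with the largest rise and the 15 with the largest fall among genes with 50 or more CPM, in the libraries of days 4, 5, 6 and 11; each point is 1 library and the line joins day 6 and day 11. Apoa2, Afp, Sln and Fabp4 start under 0.1 CPM at day 6, while the falling genes end between 2.71 CPM (AC160336.1) and 68.9 CPM (Gm10076).

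The largest falls among genes with 50 or more CPM included genes known from the early embryo. The surface protein protogenin (Prtg, chr9:72806874-72917291), found in early embryonic mesoderm and neural tube, was at 116 CPM at day 6 and 5.76 CPM at day 11, 20.2-fold lower (18.9 to 21.7). Its relative Igdcc3 was at 99.0 and 13.7 CPM. Hand1 (chr11:57828705-57832818), a transcription factor of lateral mesoderm and early heart, was at 83.7 and 5.24 CPM, 16-fold lower. Prtg and Hand1 fell steadily over the 4 libraries, from 349 and 246 CPM at day 4. Hapln1, which links hyaluronan to proteoglycans, differed from them: its 4 libraries in order of days had 1.06, 3.01, 58.8 and 4.84 CPM, so that its highest library was day 6, where 53.5% of its UMIs lay in endothelium-like cells. 2610528A11Rik was also low before, with 1.46 CPM a day earlier, then 79.7 and 15.8 CPM on the compared days. Rgs5, a signalling regulator known from pericytes, was at 72.2 and 15.3 CPM. The embryonic membrane protein Ifitm1 had 553 CPM in the day 4 library and 122 and 18.0 CPM in the compared ones, and the membrane protein Emb at 51.2 and 11.4 CPM on the compared days. Trap1a, an X-linked gene of the embryo and of tumours, was at 54.1 and 9.47 CPM. The RNAs Hoxaas3 and Hoxb5os, which overlap Hox genes on the opposite strand, were at 50.9 and 85.8 CPM at day 6 and 7.05 and 15.1 CPM at day 11. How the counting treated strand is not given in the sources used here, so these values are uncertain.

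Other genes at the low end share sequence with copies elsewhere, and their values are uncertain too. A gene was marked when 20% or more of the 64-base words in the last 500 bases of its transcripts also occur in another gene. The RNA AC160336.1 (chr14:44544055-44637201), with the largest fall among genes with 50 or more CPM (315 to 2.71 CPM, 116-fold), shared 23.3%, the histone gene Hist1h2ap 92.8% and Gm10076 59.8%. The replication protein gene Rpa3, at 79.5 and 14.9 CPM, shared 9.95%. Of 450 entered genes with a share of 20% or more, 38 were called lower (8.44%) and 25 higher (5.56%). Of 6830 genes with no shared words, 245 were lower (3.59%) and 768 higher (11.2%). The software version in the matrix headers was 3.1.0 for day 6 and 6.0.1 for day 11, so the handling of such reads and the day cannot be told apart. Without the marked genes, 843 genes were higher and 315 lower.

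The calls were then counted inside the 5 classes compared (cardiomyocyte-like, endothelium-like, neural-like, endoderm-like and unclassed). Of 351 lower genes that were not class markers, 210 (59.8%) were at least 2-fold lower in 3 or more classes, and 47 in all 5. Of 839 higher genes, 251 (29.9%) were higher in 3 or more classes and 26 in all 5. A gene counted in a class only if it reached 10 CPM there in the higher library. In how many classes each gene did so is not given, so these shares do not compare the breadth of falls and rises. For 2 of the lower and 39 of the higher genes no class passed the limit. Leaving out genes with shared ends, 36 genes were lower and 22 higher in all 5 classes. The following were picked from these after their values had been seen. Lower in all 5 were Lin28a, Sall4, a transcription factor of stem and early embryonic cells (33.2 to 1.17 CPM), Nr6a1, a nuclear receptor of the early embryo (21.1 to 2.81 CPM), Mir17hg, the host transcript of a microRNA cluster (26.9 to 4.77 CPM), Dnmt3b, a DNA methyltransferase of the early embryo (16.2 to 3.43 CPM), and Arid3b. Higher in all 5 were Nfia, Nfix, the collagen genes Col3a1 and Col1a2, the adhesion receptor Vcam1 (0.763 to 31.0 CPM), the thyroid hormone receptor Thra (41.6 to 152 CPM), and Bst2 and Ifitm3, membrane proteins of the interferon response (Ifitm3 32.9 to 191 CPM). Ifitm1, of the same family as Ifitm3, went the other way and was lower in all 5 (122 to 18.0 CPM). Myl9 also passed in all 5, but 97.9% of its day 11 UMIs lay in cardiomyocyte-like cells and free RNA from these cells was not removed. Sarcomere RNA outside that class may be free RNA or come from heart cells that missed the cut of 3 markers. It is therefore a rough gauge only. With a cut of 2 markers, 1204 cells at day 6 and 2035 at day 11 were cardiomyocyte-like, against 842 and 1747. Myl7 was at 6615 and 14674 CPM in cardiomyocyte-like cells. It was at 81.1 and 178 CPM in endothelium-like, 19.6 and 60.3 CPM in neural-like, 33.0 and 30.8 CPM in endoderm-like and 84.3 and 64.8 CPM in unclassed cells. Tnnt2, a cardiac troponin T, is itself a class marker, so its level outside the class depends on the cut. It had larger values at day 11 in all 4 of the other classes. These went from 25.9 to 65.5 CPM in endothelium-like and from 27.4 to 42.2 CPM in unclassed cells. The part of free RNA in the calls of Myl9, the collagen genes and the other genes higher in all 5 classes was not tested.

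Timing genes known from the embryo moved in opposite directions, the early ones down and the late ones up. Lin28a and Lin28b bind RNA and block the maturation of let-7, a family of microRNAs that appears as embryonic cells mature, and let-7 in turn lowers the Lin28 proteins, Hmga2 and others. Of 9 entered genes of the early list, 6 were lower (beside 3.99% of all genes) and none higher, with a median log2 ratio of -1.57. Lin28a was at 25.7 CPM at day 6 and 0.607 at day 11, 42.3-fold lower (34.3 to 52.7). Lin28b was at 27.8 and 6.89 CPM. Trim71, a let-7 target that controls cell proliferation in the embryo, was at 47.4 and 5.63 CPM. Arid3b, a DNA-binding protein, was at 38.2 and 8.58 CPM, and Mycn, a Myc family transcription factor, at 30.9 and 10.4 CPM. The chromatin protein gene Hmga2 remained abundant, with 489 and 199 CPM, 2.45-fold lower. The genes of the RNA-binding proteins Igf2bp1, Igf2bp2 and Igf2bp3 stayed within 2-fold, at 146, 112 and 132 CPM at day 6 and 73.4, 74.0 and 83.5 CPM at day 11. Hmga1 did not enter, at 8.96 and 1.57 CPM, and shares its sequence with its copy Hmga1b.

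MicroRNAs were not measured, since the assay reads the ends of polyadenylated RNA. The sequences are shown for the let-7 seed and the letters that pair with it. The mature let-7 members share the seed (bases 2 to 8, in capitals), as 3 of 9 family members in RefSeq (GRCm38.p6) show.
let-7a: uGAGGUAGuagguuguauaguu
let-7g: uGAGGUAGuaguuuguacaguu
miR-98: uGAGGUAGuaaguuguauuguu
The seed's complement, CTACCTC, was searched on the sense strand of the longest annotated 3′ untranslated region of each gene (GENCODE vM21, GRCm38). It was found in 8 of 9 early genes (88.9%), with 21 matches in all, and in 1000 of 8665 entered genes (11.5%). Among 5248 genes with regions of the same length range it was in 14.9%. In the late list it was found in 1 of 6 genes, Nfia. The early list was written with known let-7 targets in mind, so this share is not independent of the choice. The first match of each of the 3 genes with the largest falls and of Lin28b and Hmga2 is shown, with 14 bases before it and 1 after, capitals marking the match.
Lin28a site: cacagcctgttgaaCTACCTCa
Trim71 site: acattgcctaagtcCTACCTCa
Arid3b site: atttcaataaagctCTACCTCt
Lin28b site: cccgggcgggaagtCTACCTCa
Hmga2 site: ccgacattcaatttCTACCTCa
These lie at chr4:134005189-134005210, chr9:114512472-114512493, chr9:57790361-57790382, chr10:45381022-45381043 and chr10:120364224-120364245, all on the minus strand. Lin28b, Hmga2 and Trim71 held 4 matches each, Lin28a 2 and Arid3b 1, while Mycn held none. A match is a run of letters and not a measured binding site.

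The early list had 7 of 9 members lower in cardiomyocyte-like cells (where 8.53% of all genes were lower), 5 of 9 in endothelium-like (4.66%), 7 of 10 in neural-like (5.36%), 4 of 10 in endoderm-like (6.11%) and 5 of 9 in unclassed cells (5.2%). Lin28a went from 15.1 to 0.198 CPM in cardiomyocyte-like, from 42.8 to 2.95 CPM in neural-like and from 28.3 to 0.223 CPM in unclassed cells. Endoderm-like cells differed: Trim71 was at 80.9 and 74.7 CPM there and Hmga2 at 294 and 357 CPM. These cells are few, and 58 of them carry the day 11 values. The genes leading the endoderm-like class were Spink1, Rbp4 and Ttr at day 6 and Afp, Apoa2 and Rbp4 at day 11. A change of cells within that class and a change in the cells cannot be told apart. Of the 7 genes of the late list, 5 were higher in the whole libraries (beside 9.81% of all genes), with a median log2 ratio of 2.03. Nfix, at 0.453 and 36.3 CPM, had the largest ratio, 80.1 (64.4 to 101). The other nuclear factor I genes were at 19.7 and 107 CPM (Nfia), 46.2 and 235 CPM (Nfib) and 11.8 and 48.2 CPM (Nfic). Mir99ahg, host transcript of a microRNA cluster that includes let-7c, was at 38.5 and 87.8 CPM. Tcf4, a transcription factor, and Zbtb20, a zinc finger repressor, stayed within 2-fold. In neural-like cells 6 of 7 late genes were higher, beside 14.3% of all genes, and in endothelium-like cells 3 of 7, beside 5.23%.

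**Figure D3:**
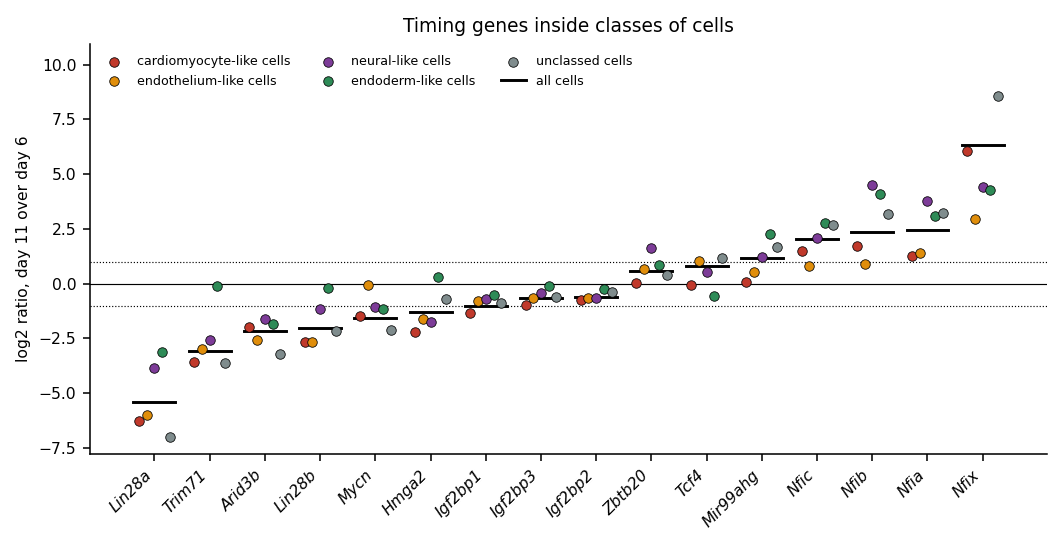
The y axis is the log2 ratio of CPM, day 11 over day 6, for 9 early (left) and 7 late (right) timing genes; points are 5 classes of cells, black bars all cells together, and dotted lines mark 2-fold. Lin28a and Arid3b are lower and Nfia and Nfix higher in all 5 classes, and the green endoderm-like points of Trim71, Lin28b and Hmga2 lie near or above 0.

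Genes of the contractile apparatus rose nearly as a block, while the transcription factors of the heart did not. Of 20 sarcomere genes 19 were higher, beside 9.81% of all genes, with a median log2 ratio of 2.47. Their summed level went from 4352 to 20629 CPM. The exception was Nebl, a thin filament protein, with 59.0 and 111 CPM. Csrp3, a mechanical sensor at the Z disc, showed the largest ratio, with 21.5 and 471 CPM (21.9-fold, 21.2 to 22.7). Tnni3, the cardiac troponin I of later heart, was at 41.6 and 636 CPM. Myh6, the main myosin heavy chain of atria and of the adult mouse heart, was at 45 and 678 CPM, and Myl2, the ventricular light chain, at 42.9 and 537 CPM. The most abundant were Myl7, the atrial light chain (1052 to 4600 CPM), and Tpm1, a tropomyosin (736 to 3160 CPM). Inside cardiomyocyte-like cells 11 of 13 sarcomere genes that were not class markers were higher, beside 8.96% of all genes. Calcium handling genes were higher in 6 of 10 cases (median log2 ratio 1.88): besides Sln and Pln, triadin (Trdn), which anchors the calcium release channel, went from 3.59 to 46.9 CPM, and the calcium pump Atp2a2 from 104 to 363 CPM. The gap junction gene Gja1 was at 52.6 and 42.1 CPM. Among hormone and chamber genes, Nppa, which encodes atrial natriuretic peptide, was at 0.332 and 48.9 CPM (147-fold, 114 to 193), and Shox2, a transcription factor of the sinus node, at 20.4 and 106 CPM, while the other 6 entered stayed within 2-fold.

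Of 13 cardiac transcription factor genes 4 were lower (beside 3.99% of all genes) and 1 higher (beside 9.81%). Besides Hand1, those lower were Gata5, from 45.1 to 13.7 CPM, Isl1, a marker of second heart field progenitors, from 36.3 to 15.8 CPM, and Hand2, from 136 to 61.5 CPM. Nkx2-5, an early heart factor, was higher, at 10.4 and 40.6 CPM. Gata6 was at 165 CPM on both days and Mef2c at 139 and 128 CPM. Within cardiomyocyte-like cells Hand1 (104 to 9.91 CPM) and Gata5 (77.4 to 15.7 CPM) were lower as well. Among 9 entered genes of cardiopharyngeal mesoderm, the progenitor field of heart and head muscle, the factors Ebf1 (24.6 to 83.1 CPM), Ebf2 and Ebf3 were higher, and Isl1 and the growth factor gene Fgf8 (16.7 to 0.769 CPM) lower. By class, 5 of 6 of these genes were higher in neural-like cells (beside 14.3% of all genes), where Ebf1 was at 18.7 and 301 CPM, and 5 of 8 were lower in cardiomyocyte-like cells (beside 8.53%). Of 12 genes of the list that entered in unclassed cells, 5 were higher (beside 9.61% of all genes) and 2 lower (beside 5.2%).

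Skeletal muscle genes ranged at day 6 from a few UMIs to 101 CPM, the level of Des, an intermediate filament gene that heart muscle also uses. Of 21 listed genes 8 entered and 7 of them were higher, a median log2 ratio of 3.58. Myog, the myogenin gene that drives terminal muscle differentiation, had 3 UMIs at day 6 and 26.0 CPM at day 11, a ratio of 1569.7 (537 to 7615). The embryonic myosin gene Myh3 had 4 UMIs at day 6 and 15.3 CPM at day 11. Tnnt1, the slow troponin T, was at 7.22 and 111 CPM, and the fast light chain Mylpf at 8.05 and 96.5 CPM. Some of these genes are also read in heart muscle. Myod1, the master regulator of muscle, stayed under the limit, with 0.0111 and 9.50 CPM.

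Of 3 entered genes of the streak and tailbud, 2 were lower (beside 3.99% of all genes) and 1 higher (beside 9.81%). Cdx2, a caudal homeobox factor, was at 30 and 0.796 CPM, 37.7-fold lower (31.4 to 45.6), and Fgf8 21.7-fold lower. T (brachyury), under the limit on both days, had 6.26 CPM at day 6 and 0.00674 CPM, 1 UMI, at day 11. Gsc, a homeobox gene of the streak and later of head mesenchyme, was higher instead, at 3.04 and 15.5 CPM. Of 6 entered somitic genes 3 were lower, beside 3.99% of all genes. These were the clock gene Hes7 (14 to 1.54 CPM), the somite factor Meox1 (36.2 to 6.06 CPM) and Foxc1 (33.8 to 13.3 CPM). Tcf15, another somite factor, was at 18.8 and 23.8 CPM, and Foxc2 and Aldh1a2 also stayed within 2-fold. Of 25 Hox genes entered, which mark position along the body axis, 4 were lower (beside 3.99% of all genes) and none higher (beside 9.81%). Hoxb1, of the first paralog group, was at 12 and 0.351 CPM, 34.1-fold lower. Hoxb2 was at 97.9 and 32.2 CPM and Hoxd3 at 13.5 and 5.33 CPM, while Hoxd9 just passed the limit, at 31.0 and 15.4 CPM. The summed level of groups 9 to 13 was 236 and 240.1 CPM. Of 18 pluripotency genes 4 entered, and 2 of these were lower, Dppa5a (38 to 3.45 CPM), which shares 32.3% of its 3′ end, and Dnmt3b (16.2 to 3.43 CPM). Sox2, which neural cells also use, was at 33.8 and 52.7 CPM, and Klf2 at 24 and 29.3 CPM. Pou5f1 (Oct4) was under the limit, at 6.14 and 2.27 CPM, as was Nanog, at 0.807 and 0.108 CPM.

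Collagens and small proteoglycans of connective tissue rose. Of 21 entered matrix genes 14 were higher (beside 9.81% of all genes) and 1 lower (beside 3.99%), with a median log2 ratio of 2.68. After Dcn the largest ratio was that of Lum (lumican), a related proteoglycan, at 0.475 and 42.6 CPM (89.7-fold, 72.5 to 112), then Col6a3, a chain of the pericellular collagen VI, at 0.514 and 27.5 CPM. The fibrillar collagen gene Col3a1 was at 60.5 and 388 CPM, and Sparc, a collagen-binding protein, at 259 and 656 CPM. The fibronectin gene Fn1 went the other way within 2-fold (201 and 131 CPM), and tenascin C (Tnc) was lower, at 12 and 5.51 CPM. In unclassed cells 19 of 23 matrix genes were higher, beside 9.61% of all genes, and Col3a1 was at 78.1 and 769.9 CPM. Matrix genes were also higher in 11 of 16 cases in endothelium-like (beside 5.23%), 11 of 19 in cardiomyocyte-like (8.96%), 8 of 13 in neural-like (14.3%) and 5 of 11 in endoderm-like cells (8.72%). Dcn, with most of its day 11 UMIs in unclassed cells (156 CPM there), was also at 17.2 CPM in cardiomyocyte-like cells at day 11. It was at 10.8 CPM in endothelium-like, 9.58 CPM in neural-like and 64.4 CPM in endoderm-like cells. Free RNA was not removed, and its part in these counts was not tested. The difference between classes was not tested either. Of 9 entered genes of mesenchyme and epicardium 2 were higher (beside 9.81% of all genes) and 1 lower (beside 3.99%), with a median log2 ratio of -0.19. The transcription factor Prrx1 was higher (43.4 to 109 CPM) and its relative Prrx2 lower (161 to 65.2 CPM), while the transcription factors Twist1 and Wt1 and the receptor Pdgfra stayed within 2-fold. Among 8 smooth muscle and pericyte genes, Kcnj8, a potassium channel subunit of pericytes, was at 0.210 and 23.3 CPM (111-fold, 80.5 to 157), in contrast to Rgs5, a marker of the same cells. The smooth muscle actin Acta2 stayed within 2-fold, at 474 and 629 CPM.

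**Figure D4:**
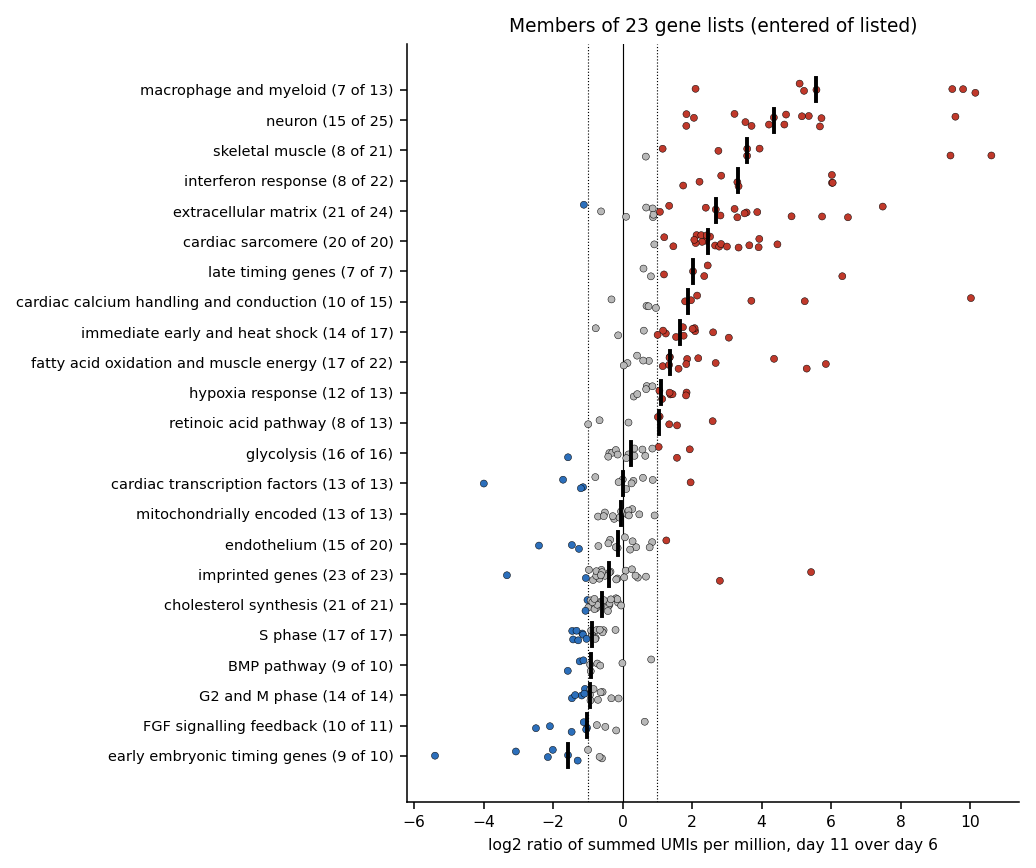
Each point is an entered member of a gene list on the y axis (entered of listed in brackets), placed by its log2 ratio of CPM, day 11 over day 6; black bars are list medians, dotted lines mark 2-fold, and red and blue points lie past it. Myeloid and neuronal lists sit furthest to the right (medians 5.58 and 4.35), the early timing list furthest to the left of the 23 lists drawn (-1.57), and mitochondrially encoded genes around 0. Members under 10 CPM at day 6 could enter only through day 11, which moves lists that were rare at day 6 to the right.

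Endothelial genes as a group were level (15 entered, median log2 ratio -0.14). Of these 1 was higher (beside 9.81% of all genes) and 3 lower (beside 3.99%). Sox18, a transcription factor of young vessels, was at 20.6 and 3.87 CPM, Plvap, which forms the diaphragms of fenestrated endothelium, at 50.7 and 18.4 CPM, and Icam2, an adhesion protein, at 24.5 and 58.6 CPM. Blood genes changed from red cell to myeloid. Hba-x, the embryonic alpha-like globin, was at 23.2 CPM at day 6 and had no UMI at day 11, at least 1149-fold lower. The other 10 red cell genes were under 10 CPM on both days. All 7 entered myeloid genes were higher (median log2 ratio 5.58). The 13 listed genes summed to 11.5 CPM at day 6, so entry rested on day 11 and the direction was largely set by the filter. The complement genes of macrophages were nearly absent at day 6, with 0 UMIs of C1qa and 9 of C1qb, and reached 18.9 and 44.4 CPM at day 11. The signalling adaptors Tyrobp (0.746 to 35.7 CPM) and Fcer1g (1.30 to 48.7 CPM) followed. Receptors that define the lineage stayed under the limit, with Csf1r at 0.138 and 4.28 CPM and Ptprc at 0.00553 and 2.29 CPM. Blood-like cells numbered 68 at day 11.

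All 15 entered neuronal genes were higher (median log2 ratio 4.35). The 25 listed genes summed to 65.5 CPM at day 6, and members under 10 CPM there could enter only through day 11. Cartpt, a neuropeptide precursor, had 8 UMIs at day 6 (0.0442 CPM) and was at 33.9 CPM at day 11, and Nefm, a neurofilament subunit, was at 0.575 and 30.4 CPM. Of 7 entered neural progenitor genes 4 were higher and none lower (median log2 ratio 1.6). Fabp7, a fatty acid carrier of radial glia, was at 29.7 and 245 CPM. Sox2 (33.8 and 52.7 CPM), Notch1 (30.7 and 29.6 CPM) and Irx3 (40.4 and 29.97 CPM) stayed within 2-fold. Among neural-like cells all 18 entered neuronal genes that were not class markers were higher, beside 14.3% of all genes. The genes leading the neural-like class were Fabp7, Hes5 and Sox2 at day 6 and Tubb3, Rtn1 and Ina at day 11, so a change of cells within the class and a change in the cells cannot be told apart. Genes of glia and neural crest were under the limit in 11 of 14 cases.

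Endoderm genes parted into gains and losses. Of 13 entered, 8 were higher and 5 lower. Besides Apoa2 and Afp, Alb (albumin) had no UMI at day 6 and was at 28.9 CPM at day 11, at least 1741-fold higher. Those lower were Spink1, a protease inhibitor of the early gut (26.5 to 5.86 CPM), the epithelial keratins Krt8 (77.0 to 19.3 CPM) and Krt18, the adhesion protein Epcam (30.1 to 14.5 CPM) and Sox17, which endothelium shares.

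Genes of the interferon response were higher at day 11. Interferon-stimulated genes are a set of antiviral genes that many cells switch on when they sense interferon. All 8 entered genes of the list were higher (beside 9.81% of all genes), with a median log2 ratio of 3.32, and 14 of 22 stayed under 10 CPM. Members under 10 CPM at day 6 could enter only through day 11, so this count and median lean towards higher by the filter. Isg15, a ubiquitin-like protein, was at 0.414 CPM at day 6 and 27.0 CPM at day 11, a ratio of 65.2 (51.9 to 83.1). Ifi27 and the chemokine gene Cxcl10 (0.155 to 10.1 CPM) had ratios of 66.1 and 65.1. Bst2, which tethers viruses to the cell surface, was at 7.98 and 80.7 CPM. The transcription factor Irf9 (3.82 to 12.8 CPM) was also higher, as were the RNA sensor Ddx58 and Ifi35. Ifitm1, a relative of Ifitm3 that is not on the list, was lower (122 to 18.0 CPM). The 22 genes summed to 58.1, 46.1, 33.0 and 309 CPM in the libraries of days 4, 5, 6 and 11.

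The interferon-stimulated response element, which Irf9 helps to read, is known for repeated GAAA words. A pair of GAAA words with any 2 bases between them was searched on both strands of 300-base RefSeq promoters (GRCm38.p6), which span the start site, with overlaps allowed. It was found in 11 of 18 listed genes with a promoter sequence (61.1%) and in 1079 of all 27025 genes with one (3.99%). Among entered genes it was in 4 of 6 of the list (66.7%) and in 230 of 7025 in all (3.27%). Of 640 genes called higher it was in 25 (3.91%), and of 269 called lower in 3. The list was made of known interferon response genes, so its share is not independent of the choice. The promoters of Isg15 (chr4:156200769-156201068, minus strand) and Bst2 (chr8:71537423-71537722, minus strand) are shown with their matches in capitals, since these genes rose in several classes.
Isg15 promoter: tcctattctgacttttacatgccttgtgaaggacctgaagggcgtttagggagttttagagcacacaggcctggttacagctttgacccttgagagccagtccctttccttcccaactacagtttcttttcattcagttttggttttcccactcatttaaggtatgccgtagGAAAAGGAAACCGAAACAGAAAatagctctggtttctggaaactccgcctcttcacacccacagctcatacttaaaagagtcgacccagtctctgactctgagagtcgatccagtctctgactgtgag
Bst2 promoter: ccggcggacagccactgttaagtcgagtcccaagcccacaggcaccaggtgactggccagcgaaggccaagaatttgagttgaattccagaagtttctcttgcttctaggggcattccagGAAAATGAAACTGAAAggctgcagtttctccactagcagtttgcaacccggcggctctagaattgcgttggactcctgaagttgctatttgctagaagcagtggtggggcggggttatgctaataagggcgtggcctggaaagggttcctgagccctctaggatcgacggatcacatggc
Isg15 held 3 overlapping matches, the first at -78 from the start site, and Bst2 held 2, the first at -130. A match describes the sequence and names no factor that acted.

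By class, most list genes entered in endothelium-like cells, where 12 of 13 were higher, beside 5.23% of all genes. Blood-like cells, too few to compare, are left out of these counts. Bst2 rose there from 30.5 to 184 CPM and Isg15 from 1.01 to 60.9 CPM. Unclassed cells had 8 of 8 higher (beside 9.61%) and cardiomyocyte-like cells 6 of 6 (beside 8.96%), with Isg15 going from 0.448 to 16.3 CPM in the latter. Cxcl10 differed: its highest level among the compared classes, 101.6 CPM, was in endoderm-like cells, where Isg15 was at 0.715 CPM. Interferon is not named in the labels, and what lay behind these rises was not tested. Class I antigen presentation genes moved less, with 2 of 5 entered higher, beside 9.81% of all genes. These were Tapbp, a peptide loading chaperone (3.62 to 10.5 CPM), and H2-D1. B2m, the shared light chain of class I proteins, was at 67.3 and 105 CPM.

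**Figure D5:**
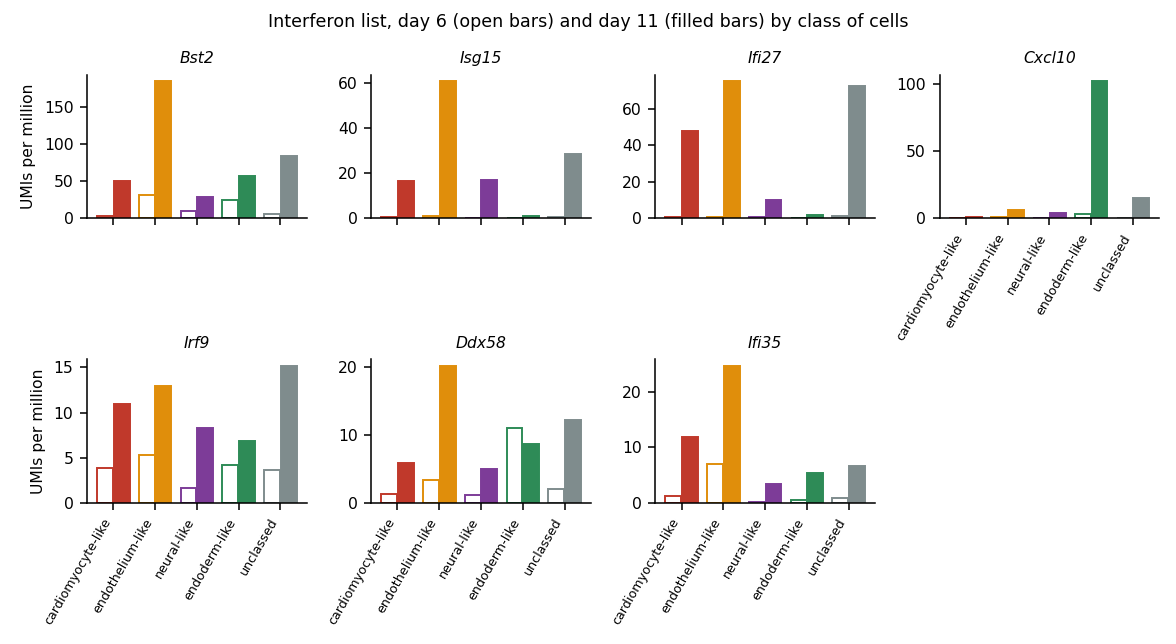
CPM of 7 interferon list genes in 5 classes of cells, day 6 as open and day 11 as filled bars, each bar the sum of 1 library's cells with axes from 0. Filled bars exceed open bars in each panel except Ddx58 in endoderm-like cells (10.9 and 8.58 CPM). Of the classes drawn, endothelium-like cells have the highest day 11 bar for Bst2, Isg15, Ifi27, Ddx58 and Ifi35. Blood-like cells are not drawn, and Ifi27 was at 151 CPM in them at day 11, against 75.3 CPM in endothelium-like cells.

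Genes of fatty acid oxidation and muscle forms of respiratory subunits rose. Of 17 entered genes of fatty acid oxidation and muscle energy use 12 were higher and none lower (median log2 ratio 1.36). Besides Cox6a2, the muscle subunits Cox8b (0.420 to 24.2 CPM) and Cox7a1 (13.3 to 85.0 CPM) and myoglobin (Mb, 0.768 to 15.8 CPM) had the largest ratios. Enzymes of the oxidation itself rose by less: Acadl and Hadha, which act in its first and later steps, were at 51.5 and 62.3 CPM at day 6 and 132 and 157 CPM at day 11. Within cardiomyocyte-like cells 13 of 18 were higher, beside 8.96% of all genes, and within neural-like cells 4 of 12, beside 14.3%. Glycolytic genes were level, with 3 of 16 higher (beside 9.81% of all genes), 1 lower (beside 3.99%) and a median log2 ratio of 0.25. Hexokinase 1 (Hk1) was at 23.1 and 88.0 CPM and the phosphofructokinase Pfkp at 44.4 and 131 CPM. Eno1, the lower gene (811 to 273 CPM), shares 37.5% of its 3′ end with other genes and is uncertain, and Gapdh, at 4638 and 5852 CPM, shares 41.2%. Of 12 entered genes of the hypoxia response 7 were higher (median log2 ratio 1.10), led by Ndrg1, a stress-induced gene (9.52 to 34.1 CPM), and P4ha2, a collagen prolyl hydroxylase (33.7 to 119 CPM), and Higd1a, a mitochondrial protein, was the most abundant (378 to 832 CPM). All 21 genes of cholesterol synthesis and uptake had log2 ratios below 0 (median -0.61), but 2 passed the limit, Dhcr7 (39.7 to 18.9 CPM) and Idi1 (185 to 91.6 CPM). By class this list parted: 11 of 21 were lower in unclassed cells, beside 5.2% of all genes, while 6 of 21 were higher and none lower in endoderm-like cells, beside 8.72% higher. Different genes led the endoderm-like class on the compared days, so a change of cells within it cannot be told apart from a change in the cells.

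Feedback genes of FGF signalling were lower, and Wnt and BMP genes in part. Among feedback genes that FGF signalling induces, 6 of 10 were lower (beside 3.99% of all genes) and none higher, with a median log2 ratio of -1.04. Etv4 and Etv5, transcription factors of this pathway, were at 19.9 and 12.2 CPM at day 6 and 3.52 and 2.85 CPM at day 11, and the inhibitor Spry1 at 22.4 and 8.10 CPM. In endothelium-like cells none of 7 entered genes was past the limit, and Dusp6, a phosphatase that ends the signal, was at 57.8 and 60.9 CPM there. Of 5 Wnt target genes 3 were lower, the inhibitor Dkk1 (27.9 to 2.33 CPM) and the factors Tcf7 and Lef1, while Axin2, the commonly used readout, was at 6.71 and 11.7 CPM. For BMP, 3 of 9 were lower (beside 3.99% of all genes): Smad6, an inhibitor (26.5 to 8.86 CPM), the ligand Bmp2 and the factor Msx1. The abundant Id genes were below 2-fold, with Id3 at 582 and 372 CPM. Retinoic acid genes went the other way, with 5 of 8 higher, among them the reductase Dhrs3 (4.40 to 26.5 CPM), Crabp1, which binds retinoic acid (106 to 314 CPM), the receptor Rarb and the hydroxylase Cyp26b1.

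Cell cycle genes had levels below those of day 6 in most cases. Of 17 S phase genes 7 were lower (median log2 ratio -0.89), and of 14 G2 and M phase genes 5 (median -0.93), beside 3.99% of all genes. None was higher in either list. Rrm2, a subunit of the enzyme that makes deoxynucleotides, was at 162 and 59.1 CPM, and Cdk1, the kinase that drives mitosis, at 221 and 80.3 CPM. Mki67 was at 123 and 114 CPM. In cardiomyocyte-like cells 13 of 15 S phase genes were lower, beside 8.53% of all genes, and in endoderm-like cells 2 of 17, beside 6.11%. Among inhibitors, Btg2 was higher (22.5 to 60.6 CPM), and Cdkn1a lay at the limit with 60.1 and 120.0 CPM. Imprinted genes, of which 1 parental copy is used and which often govern growth, stayed within 2-fold in 19 of 23 cases. This is near the 86.2% of all entered genes that did so. The exceptions were H19 (0.337 to 14.5 CPM) and Plagl1, a zinc finger gene (2.95 to 20.5 CPM), both higher, and Phlda2 (42.6 to 4.23 CPM) and Dlk1 (642 to 308 CPM), both lower. Igf2, the neighbour of H19, was at 519 and 702 CPM and shares 64.1% of its 3′ end.

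Signs of stress and RNA quality moved with the day. Of 14 immediate early and heat shock genes, known to respond to dissociation, 11 were higher, beside 9.81% of all genes (median log2 ratio 1.64). Among them were Fos (35.8 to 218 CPM), Jun, Egr1 and Hspb1 (31.9 to 266 CPM), while the heat shock gene Hsp90aa1 was at 1250.4 and 731 CPM. Malat1, a nuclear RNA, was at 5191 and 12949 CPM, and Gm42418, which overlaps a ribosomal RNA gene, at 434 and 2803 CPM. Of 17 genes of the integrated stress response 5 were higher (beside 9.81% of all genes) and 1 lower (beside 3.99%), with a median of -0.19. Nupr1, a stress-induced chromatin protein, was at 1.53 and 22.8 CPM, and Psat1, a serine synthesis enzyme, at 82.6 and 30.4 CPM. The part of these differences in the other results was not tested.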

How the data were processed

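Single-cell RNA libraries of wild-type gastruloids were read as the matrices of UMI counts deposited by the authors, 1 per day and not normalized. The submitters' processing notes name Cell Ranger 3.1.0 and the mm10 build, while the matrix headers give version 3.1.0 for day 6 and 6.0.1 for day 11. Counts were summed over kept cells and scaled to CPM, counts in every 1000000, with numpy 2.4.6 and pandas 2.3.3, and intervals came from scipy 1.17.1. Depth was 180968688 UMIs at day 6 and 148266070 at day 11, so that 1 UMI is 0.00553 and 0.00674 CPM. Doublets were not called; leaving out the 8% of cells with the most UMIs is an alternative in the closing section. Calling and intervals were tested on simulated data.

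The members and lists were chosen with earlier results of these data known. The rule for named genes took the 15 largest and 15 smallest ratios at 50 or more CPM, the 4 largest changes and 2 most abundant genes of each list, and all members of lists of up to 14 genes. Genes named outside it, such as Mki67, Acadl, Hadha, Pou5f1, Nanog, Myod1, T, Csf1r and Ptprc, were chosen after their values were seen. Results for some genes are not reported here, though counts include them.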

Additional observations from a re-analysis of the deposited data

Results flagged for a closer look

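Genes that moved past 2-fold in opposite directions in different classes of cells, among genes with 50 or more CPM, are given here. With 1 library per day the differences were not tested, and no group held enough libraries to look for one that stands apart. A class may hold other cells at day 11 than at day 6, as the leading genes of neural-like and endoderm-like cells showed. A change of cells within a class and a change in the cells cannot be told apart. Dlk1, an imprinted growth gene, had a log2 ratio of 2.51 in endoderm-like cells (177 to 1005 CPM) and of -2.27 in cardiomyocyte-like cells (524 to 109 CPM). Ccng1, a p53 target, had 1.06 in cardiomyocyte-like cells (50.5 to 105 CPM) and -1.17 in endoderm-like cells (90.7 to 40.4 CPM). Col4a1, a basement membrane collagen, had 1.28 in unclassed cells (43.3 to 105 CPM) and -1.05 in endoderm-like cells (171 to 82.6 CPM). Gja1 had 1.32 in endothelium-like cells (28.8 to 71.7 CPM) and -1.64 in endoderm-like cells, where day 11 rests on 74 UMIs. Mpped2 had 1.30 in neural-like cells (54.5 to 134 CPM) and -1.71 in cardiomyocyte-like cells (274 to 84.2 CPM). Mthfd2, a mitochondrial folate enzyme, had 1.03 in cardiomyocyte-like cells (34.6 to 70.5 CPM) and -1.41 in neural-like cells (111 to 41.9 CPM).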

How the results depend on the processing

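The counts of 868 higher and 353 lower genes followed the filter and the fold: 2340 and 762 at 1 or more CPM, 255 and 121 at 50 or more CPM, 4677 and 1735 with no filter, 1580 and 1189 at 1.5-fold, and 354 and 70 at 4-fold. The share of higher among called genes was 71.1%, against 57.1% at 1.5-fold and 83.5% at 4-fold. Under the other settings the counts lay between 813 and 999 higher and 315 and 469 lower, but the genes called were not all the same. In unclassed cells 481 of the 868 higher and 279 of the 353 lower genes were called again, and 6 of the higher became lower. Without cardiomyocyte-like cells 615 and 268 were called again, and 2 of the higher became lower. Leaving out genes with shared 3′ ends was chosen after seeing the data. Log2 ratios that changed sign without cardiomyocyte-like cells were those of Cnn1 (-0.56), Cpt1b (-1.24) and Tnni1 (-1.31). In unclassed cells they were those of Apoa1 (-0.14), Cd68 (-0.0874), Cnn1 (-0.29), Cpt1b (-1.80), Fgb (-0.26), H2-D1 (-0.31), Lhx1 (-1.76), Myl7 (-0.38), Pax3 (-0.0870), Pfkp (-0.17), Rtn1 (-0.0357), Tfap2b (-0.0930), Tnni1 (-2.14) and Trf (-1.08). These settings leave out cells by construction. No paired analysis was possible because each day has 1 library, and for the same reason no replicate could be left out. Depth limits genes of few UMIs at either day, whose ratios are wide or bounds.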
